A study of Mus musculus with 8 samples.

Results

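The genes described here encode the nuclear-encoded subunits of the oxidative phosphorylation system and some of its assembly factors. They were taken by name, as protein-coding genes on placed mouse chromosomes whose symbols begin with Nduf, Uqcr, Cox4i, Cox5, Cox6, Cox7, Cox8 or Atp5, together with Sdha, Sdhb, Sdhc and Sdhd. The rule gave 96 of 21883 genes, and no value of the data entered it. Of the 96, 49 carry names of complex I, 4 of complex II, 8 of complex III, 18 of complex IV and 17 of complex V. The 49 include 8 Ndufaf genes, whose products help to build complex I and are not subunits of it. The data are 8 lists of open chromatin regions (peaks) from ATAC-seq, in which a transposase cuts accessible DNA, of hippocampal microglia from mice aged 3 weeks. There were 4 libraries from FGR mice, the label of a study of growth restriction in the womb, and 4 from Ctrl mice. All mice carried Tmem119-tdTomato+/-, a reporter at a microglial gene, and the labels give neither the number of animals behind a library nor how growth was restricted. The p-values below thus weigh differences only against the spread among libraries, which may be partly technical.

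Oxidative phosphorylation passes electrons from NADH through complex I, or from succinate through complex II, to complex III and then to complex IV, which reduces oxygen to water. Complexes I, III and IV pump protons across the inner mitochondrial membrane, and complex V, the ATP synthase, uses the gradient to make ATP. Most subunits are encoded in the nucleus, a few of complex IV and complex I have isoforms restricted to muscle, lung or testis, and microglia, like other brain macrophages, shift between this pathway and glycolysis when they are activated. The factors NRF1, GABP (of the ETS family), CREB, YY1 and the oestrogen-related receptors are known in mammals to bind promoters of such genes.

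The sequences just upstream of 10 starts show the kind of DNA that was or was not covered by a peak at these genes. Each is the 250 bases before a transcription start, 5′ to 3′ on the gene's own strand, from RefSeq on assembly GRCm38.p6, whose coordinates are those of mm10. Capitals mark matches to 4 of the 6 motifs searched, GCATGCGC for NRF1, CCGGAAG for ETS factors, TGACGTCA for the cyclic AMP response element (CRE) and TCAAGGTCA for oestrogen-related receptors (ERR), on either strand. Cox6a1, Ndufa11 and Atp5g2 are shown for their NRF1 palindromes, Sdhd and Ndufs3 for an ETS match, Uqcrfs1 for a CRE and Atp5g3 for an ERR match. Cox5a is shown because its listed start lies inside the annotated gene, Ndufc2 because a peak covered it in 4 FGR and 0 Ctrl libraries, and Cox8b because no library had a peak there.
Cox6a1 (chr5:115348959-115349208, minus strand): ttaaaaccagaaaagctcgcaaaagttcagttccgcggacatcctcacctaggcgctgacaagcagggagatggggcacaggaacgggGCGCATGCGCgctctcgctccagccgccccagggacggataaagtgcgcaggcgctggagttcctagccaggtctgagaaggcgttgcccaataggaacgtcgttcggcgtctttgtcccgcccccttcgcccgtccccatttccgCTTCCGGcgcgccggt
Ndufa11 (chr17:56717512-56717761, plus strand): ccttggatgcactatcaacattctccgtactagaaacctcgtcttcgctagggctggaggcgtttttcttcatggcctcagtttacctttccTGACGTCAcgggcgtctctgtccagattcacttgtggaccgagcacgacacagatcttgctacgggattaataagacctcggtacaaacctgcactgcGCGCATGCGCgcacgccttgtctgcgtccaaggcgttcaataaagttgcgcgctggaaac
Atp5g2 (chr15:102671048-102671297, minus strand): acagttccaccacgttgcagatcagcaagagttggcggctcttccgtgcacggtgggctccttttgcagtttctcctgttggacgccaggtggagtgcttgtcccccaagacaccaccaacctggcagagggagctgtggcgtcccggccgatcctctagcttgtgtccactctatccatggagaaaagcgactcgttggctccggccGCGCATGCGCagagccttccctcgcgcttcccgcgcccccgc
Sdhd (chr9:50603850-50604099, minus strand): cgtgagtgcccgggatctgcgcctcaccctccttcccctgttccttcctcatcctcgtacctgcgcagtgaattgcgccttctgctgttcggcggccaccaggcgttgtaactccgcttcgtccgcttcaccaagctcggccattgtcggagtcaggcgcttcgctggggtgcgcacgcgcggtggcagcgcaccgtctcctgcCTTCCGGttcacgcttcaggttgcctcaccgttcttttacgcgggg
Ndufs3 (chr2:90904722-90904971, minus strand): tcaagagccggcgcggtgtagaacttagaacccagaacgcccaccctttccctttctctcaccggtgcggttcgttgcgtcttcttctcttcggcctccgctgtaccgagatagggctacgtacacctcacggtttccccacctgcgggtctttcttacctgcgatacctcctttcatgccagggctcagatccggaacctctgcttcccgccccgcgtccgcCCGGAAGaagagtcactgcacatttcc
Uqcrfs1 (chr13:30545317-30545566, minus strand): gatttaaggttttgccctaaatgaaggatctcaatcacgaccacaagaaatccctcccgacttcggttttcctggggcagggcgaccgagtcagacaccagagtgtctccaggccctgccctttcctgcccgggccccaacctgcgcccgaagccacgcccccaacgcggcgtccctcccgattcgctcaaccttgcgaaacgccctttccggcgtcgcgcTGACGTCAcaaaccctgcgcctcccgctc
Atp5g3 (chr2:73911327-73911576, minus strand): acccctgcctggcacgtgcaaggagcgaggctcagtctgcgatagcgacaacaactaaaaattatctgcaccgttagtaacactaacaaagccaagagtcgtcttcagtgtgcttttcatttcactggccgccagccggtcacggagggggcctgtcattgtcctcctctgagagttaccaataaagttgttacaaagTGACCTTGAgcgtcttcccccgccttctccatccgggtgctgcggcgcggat
Cox5a (chr9:57520982-57521231, plus strand): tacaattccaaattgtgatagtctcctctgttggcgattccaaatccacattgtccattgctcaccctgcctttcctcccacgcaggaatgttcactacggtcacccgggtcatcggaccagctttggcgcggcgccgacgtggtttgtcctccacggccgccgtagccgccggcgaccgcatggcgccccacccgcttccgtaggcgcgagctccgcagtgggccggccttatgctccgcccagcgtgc
Ndufc2 (chr7:97399753-97400002, plus strand): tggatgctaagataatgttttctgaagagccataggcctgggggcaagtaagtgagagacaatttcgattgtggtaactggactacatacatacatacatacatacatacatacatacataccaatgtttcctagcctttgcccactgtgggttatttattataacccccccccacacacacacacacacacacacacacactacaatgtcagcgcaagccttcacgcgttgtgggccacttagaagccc
Cox8b (chr7:140900447-140900696, minus strand): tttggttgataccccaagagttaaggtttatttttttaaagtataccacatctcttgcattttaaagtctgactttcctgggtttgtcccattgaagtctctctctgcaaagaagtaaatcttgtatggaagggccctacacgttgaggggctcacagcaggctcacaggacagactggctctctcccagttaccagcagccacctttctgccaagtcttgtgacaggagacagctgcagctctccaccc
A peak overlapped the printed stretch in all 8 libraries at Cox6a1, Atp5g2, Sdhd, Atp5g3 and Cox5a. At Ndufs3 and Uqcrfs1 this held in 3 FGR and 4 Ctrl libraries, and at Ndufa11 in 3 libraries of each group.

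The lists were of unequal length and quality, and this touches every count below. They held 27209, 23327, 29501 and 26246 peaks in FGR replicates 1 to 4 and 16111, 10862, 22705 and 24195 in Ctrl replicates 1 to 4. Ctrl replicates 1 and 2 stood apart, with median peak widths of 566 and 522 bp against 353 to 386 bp in the other 6 libraries. FGR replicates 1 and 3 shared 6.78% of identical summits and FGR replicates 2 and 4 shared 5.96%, against 1.21% to 1.59% in 13 other pairs without Ctrl 1 and 2. FGR replicates 1 and 3, and 2 and 4, were therefore averaged as 1 sample each for mean ± SD. Ctrl libraries were averaged by the same numbers for symmetry alone, since Ctrl replicates 1 and 3 shared 0.00621% of summits and Ctrl replicates 2 and 4 0.0368%. Each Ctrl pair joins a list of wide and a list of narrow peaks, so its SD understates the spread, and SDs over single libraries are given beside it. As a check of the labelled cell type, peaks within 1 kb of a gene end were called in all 8 libraries at 5 of 12 microglia markers (Tmem119, Sall1, Irf8 and Cx3cr1 among them) and in none at 1 (Gpr34). At 6 of the 12 more FGR than Ctrl libraries had one, and at 0 fewer. By library 83.3%, 83.3%, 83.3% and 91.7% of the 12 had one in FGR replicates 1 to 4 and 66.7%, 41.7%, 83.3% and 83.3% in Ctrl replicates 1 to 4, the low values being those of Ctrl replicates 1 and 2. Peaks were called in all 8 at 0 of 8 neuron, 0 of 6 astrocyte, 0 of 8 oligodendrocyte and 0 of 7 border macrophage and monocyte markers, and at 1 of 6 endothelial and mural markers (Kdr). Another of these 6, Flt1, had one in 4 FGR and 1 Ctrl libraries, and the part of these markers in the differences below was not tested.

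Most oxidative phosphorylation genes were open at a gene end in every library. A gene-end peak is one that shares at least 1 bp with the stretch within 1 kb of an annotated end of the gene, upstream or downstream, at its 5′ or its 3′ end. All 8 libraries had one at 60 of the 96 genes, or 62.5%, against 6972 of 21883 protein-coding genes, or 31.9%. A further 24 genes had one in 1 to 7 libraries, and 12 (12.5%) in none, against 42.2% of all genes. Another gene's end lay within 1 kb of 54 of the 96, or 56.2%, against 24.8% of all genes, so a peak there cannot be assigned to 1 gene. The share with a gene-end peak in all 8 libraries was 38 of 54 with such a neighbour and 22 of 42 without one. Of 14 catalytic and other chosen subunit genes among the 96 (Cox4i1, Cox5a and Cox5b for complex IV), 10 had one in all 8. Without Ctrl replicates 1 and 2, 70 of the 96 (72.9%) had one in all 6 remaining libraries, against 37.9% of all genes.

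**Figure D1:**
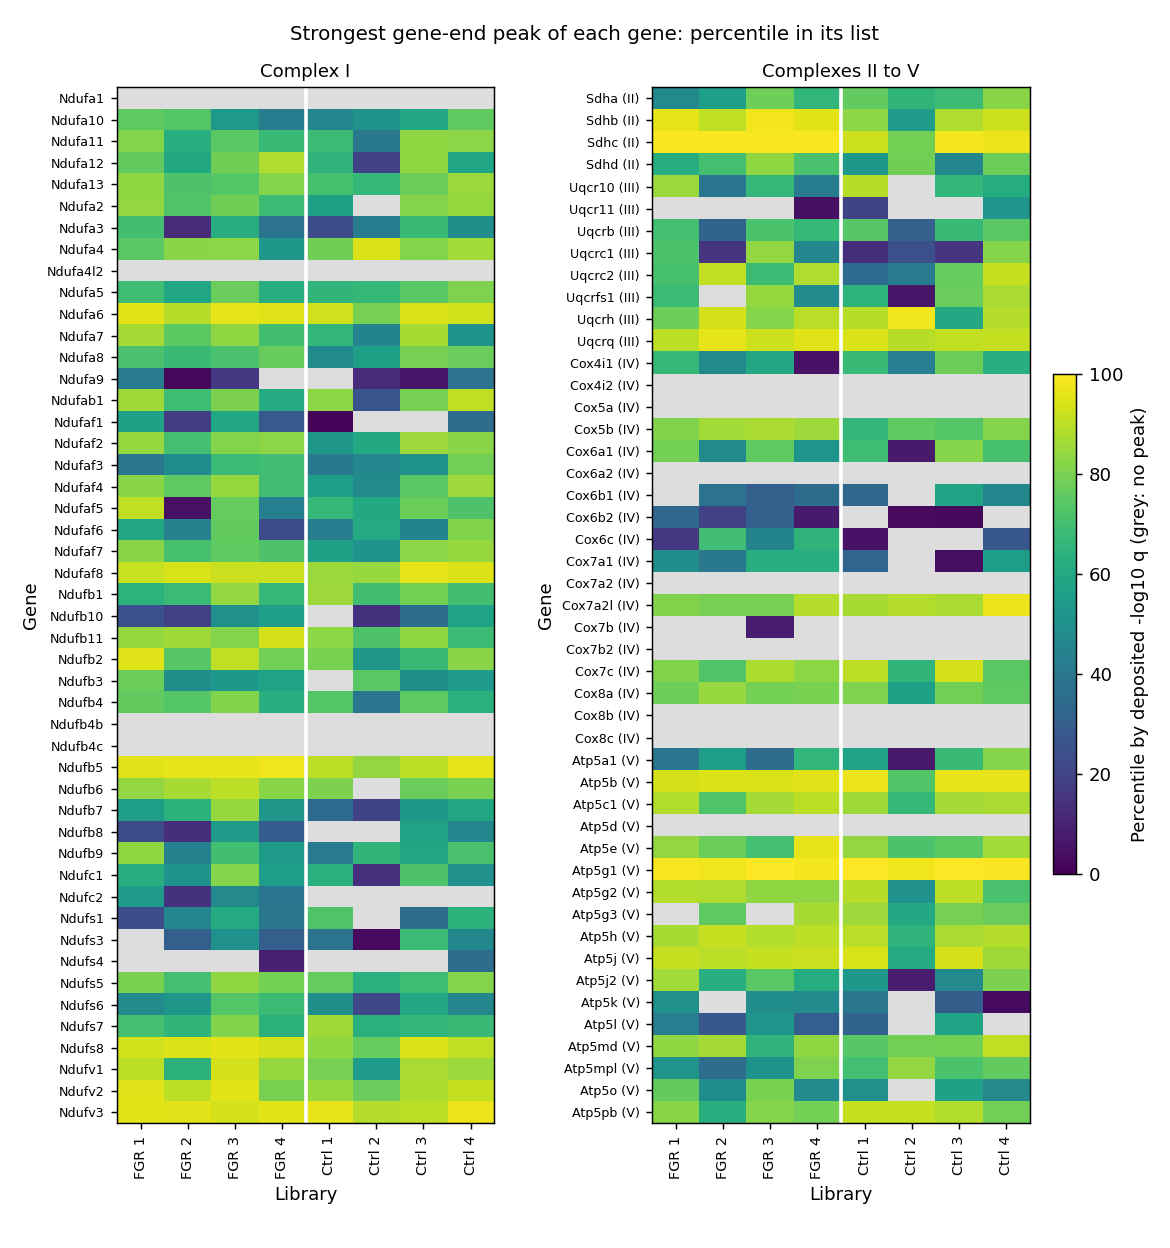
Strength of the strongest gene-end peak at each of 95 genes (down the page) in each library (across), as the percentile of its −log10 q within that library's list, with FGR libraries left of the white line and Ctrl libraries right of it. Grey cells are genes without a gene-end peak, which form unbroken bands at 12 genes, and Ndufc2 has cells filled in the 4 FGR libraries alone.

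In complex I, which oxidises NADH, 33 of 49 genes had a gene-end peak in all 8 libraries. Ndufv1, which holds the flavin that takes electrons from NADH (chromosome 19, 4007499 to 4012755), had one in every library, at a median percentile of 84.6 within the lists by the deposited −log10 q. Ndufs7, of the quinone-binding region (chromosome 10, 80249105 to 80256794), likewise had one in all 8, at a median of 66.7. Ndufs1, the largest iron-sulphur subunit, had one in 4 FGR and 3 Ctrl libraries, with Ctrl replicate 2 the one without. Ndufb5 and Ndufv3, both at a median percentile of 95.7, and Ndufa6, at 93.9, had the strongest peaks of the complex. Ndufa3, at 45.9, Ndufaf3, at 49.96, and Ndufs6, at 51.4, had the weakest among genes with one in all 8 libraries.

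At 4 complex I genes no library had a gene-end peak. Ndufa1, an accessory subunit gene on the X chromosome, was one, and its nearest peak lay 76836 to 77027 bp away in every library. The others were Ndufb4b and Ndufb4c, copies of the Ndufb4 gene, and Ndufa4l2, known as a hypoxia-induced gene. Ndufa4, the broadly expressed relative of Ndufa4l2 whose product is now placed in complex IV, had one in every library and a median percentile of 81.8. Ndufs4, whose loss in mice causes a neurodegenerative disease, had one in 1 FGR and 1 Ctrl library, replicate 4 of each. The 8 Ndufaf assembly factor genes had one in 8, 8, 8 and 8 genes in FGR replicates 1 to 4 and in 8, 7, 7 and 8 in Ctrl replicates 1 to 4, the difference being Ndufaf1.

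Complex II, which oxidises succinate and is also part of the citric acid cycle, was open throughout. Sdha, the flavoprotein, Sdhb, the iron-sulphur subunit, and the membrane anchors Sdhc and Sdhd each had one at a gene end in all 8 libraries. Sdhc (chromosome 1, 171129157 to 171150640) was near the top of the lists, with percentiles of 98.9, 99.0, 98.9 and 99.0 in FGR replicates 1 to 4 and 92.5, 78.9, 98.2 and 97.0 in Ctrl replicates 1 to 4. All FGR libraries lay above all Ctrl libraries there, with Ctrl replicate 2 lowest, but these ranks come from lists of different lengths. How many other genes separated in this way was not counted. The median percentile over all genes was also lowest in Ctrl replicates 1 and 2, at 67.4 and 61.7. Sdha had a median percentile of 67.3, Sdhd of 70.8 and Sdhb of 91.3.

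In complex III, which passes electrons from ubiquinol to cytochrome c, 5 of 8 genes had a gene-end peak in all 8 libraries and none lacked one throughout. They were Uqcrb, Uqcrh, Uqcrq and the genes of the core proteins, Uqcrc1 and Uqcrc2. Uqcrc1 was the weakest of all such genes, with percentiles of 71.5, 15.6, 83.9 and 46.4 in FGR and 13.2, 24.6, 15.3 and 82.0 in Ctrl replicates 1 to 4. The groups overlapped, and the spread within each group spanned most of the list. Uqcrfs1, which encodes the Rieske iron-sulphur protein, had a gene-end peak in 3 FGR and 4 Ctrl libraries, FGR replicate 2 being without one.

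Complex IV, cytochrome c oxidase, was the least open at gene ends, with a gene-end peak in all 8 libraries at 6 of 18 genes and in none at 7. The 6 were Cox4i1, Cox5b, Cox6a1, Cox7a2l, Cox7c and Cox8a. The isoforms restricted to other tissues account for 5 of the 7 without one, namely Cox4i2 (lung), Cox6a2 and Cox8b (heart and skeletal muscle) and Cox7b2 and Cox8c (testis). None of the 8 restricted isoforms, Ndufa4l2 included, had one in all 8 libraries. Cox6b2, a testis isoform, had one in 4 FGR and 2 Ctrl libraries and the muscle isoform Cox7a1 in 4 FGR and 3 Ctrl libraries, but their windows hold ends of Fam71e2 and Capns1. Of the 7 broadly expressed partners of these isoforms, 4 (Cox4i1, Cox6a1, Cox8a and Ndufa4) had one in all 8. Cox6b1 had one in 3 libraries of each group, Cox7b in 1 FGR library and Cox7a2 in none.

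In complex V, 12 of 17 genes had a gene-end peak in all 8 libraries. Among the catalytic head genes, Atp5b, the beta subunit (chromosome 10, 128083307 to 128090388), had a median percentile of 95.2, Atp5c1, the gamma subunit, 86.4 and Atp5a1, the alpha subunit, 57.0. Atp5g1, 1 of the 3 genes for the rotating c subunit (chromosome 11, 96072793 to 96075694), had the highest median of the 96, at 99.3. Its percentiles were 99.0, 97.8, 99.7 and 98.4 in FGR and 99.9, 97.9, 99.7 and 99.6 in Ctrl replicates 1 to 4, overlapping within about the top of each list. Atp5g2 followed with a median of 85.8, while Atp5g3 had a gene-end peak in 2 FGR and 4 Ctrl libraries. Atp5j, which encodes coupling factor 6, was at 91.2, in a window shared with Gabpa, the gene of the DNA-binding GABP subunit.

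**Figure D2:**
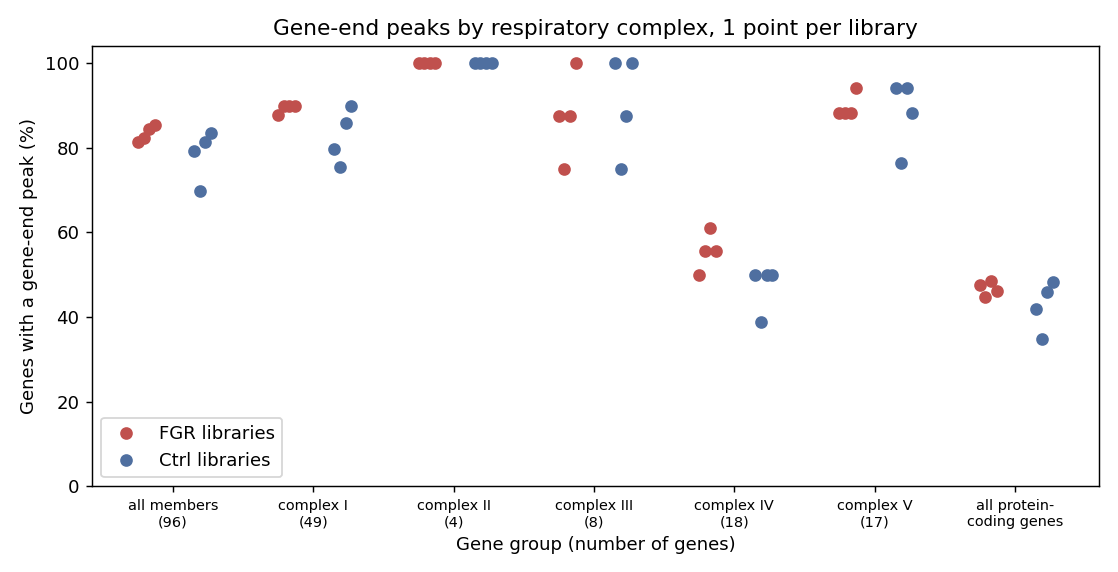
Percent of genes with a gene-end peak (vertical axis) for all 96 genes, for each complex and for all protein-coding genes, with 1 point per library, FGR left of Ctrl. Complex II is at 100% and complex IV lowest of the complexes in every library, and Ctrl replicate 2 is the low Ctrl point in every group except complex II.

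Several of the genes without a gene-end peak were open at a start that lies inside the annotated gene. RefSeq starts were listed for 78 of the 96 genes, and a start peak is one within 1 kb of any of them. All 8 libraries had a start peak at 55 of the 78, or 70.5%, against 34.6% of 17491 genes with a listed start. Cox5a, which encodes a subunit of complex IV, had a start peak in 4 FGR and 4 Ctrl libraries although its gene ends had none, its listed start lying 3904 bp from the nearest annotated end. The same held for Cox7a2, with the start 11569 bp inside, and for Atp5d, the delta subunit of complex V, with the nearest start 3577 bp inside. At Atp5d, however, the nearest summit was mostly well upstream of a listed start. It lay at -841, -848, -847 and -765 bp in FGR and -645, -954, -760 and 7 bp in Ctrl replicates 1 to 4 (negative upstream). Atp5g3 had a start peak in 8 of 8 libraries, and its difference between 2 FGR and 4 Ctrl libraries at the gene end was not seen at its start. Only Ndufa1, Ndufb4b, Cox7b2 and Cox8b, of the 78, had no start peak in any library. A mean of 76.9% of 13 complex IV genes had a start peak in FGR and 69.2% in Ctrl. For 5 complex III genes the means were 80% and 85%. By start peaks complex III was lower than complex IV in FGR replicates 2 and 3 and in Ctrl replicate 2.

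Peaks lay at starts and not at 3′ ends. Among 69 genes whose start and 3′ end were over 2 kb apart, 51 had a start peak in all 8 libraries, and 1 had a peak at the 3′ end in all 8. That gene was Ndufab1, which encodes the mitochondrial acyl carrier protein, and 64 of the 69 had no 3′ peak in any library. Of 15221 such genes in the table, 38.7% had a start peak in all 8 and 1.78% a 3′ peak. The summit nearest to a start lay a median of 56, 59, 50 and 53 bp from it in FGR replicates 1 to 4 and 128, 122, 55 and 57 bp in Ctrl replicates 1 to 4. Ctrl replicates 1 and 2 were thus the distant ones, and in Ctrl replicate 1 only 19 of 66 summits lay within 100 bp, against 47 of 69 in FGR replicate 1. Both were also the libraries with the widest peaks, and the part this has in any group difference was not tested.

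**Figure D3:**
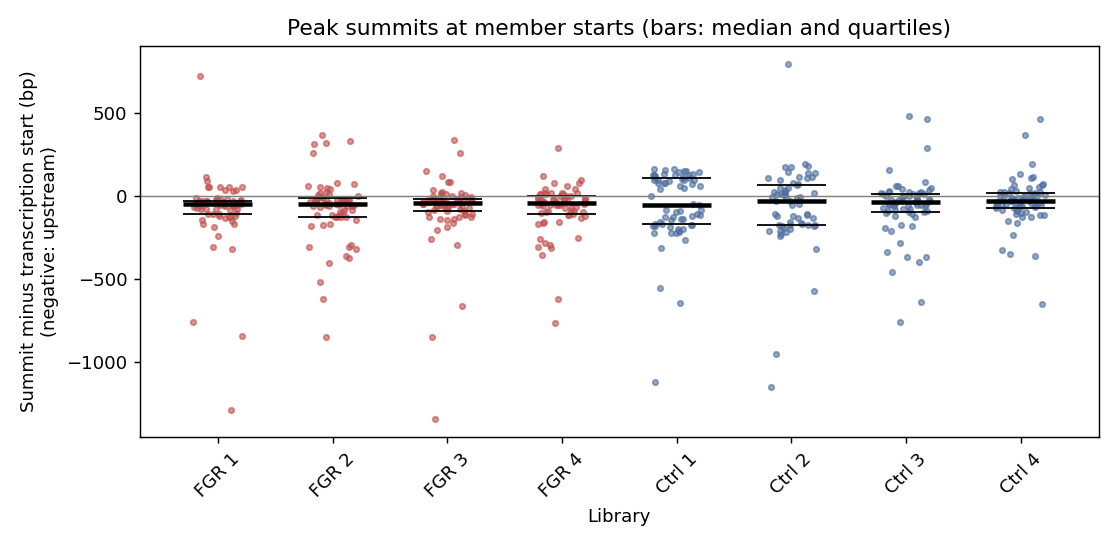
Distance in bp of the nearest peak summit from a RefSeq start (vertical axis, negative upstream) for each gene with a start peak, by library, with FGR left of Ctrl and bars at the median and quartiles. Summits gather near the start, mostly upstream of it, in 6 libraries, with quartiles of -94 and 12 bp in Ctrl replicate 3 and -69.5 and 21.5 bp in Ctrl replicate 4. In Ctrl replicates 1 and 2 they spread further on both sides, with quartiles of -170 and 109 bp and of -171 and 66 bp.

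Where present, the strongest gene-end peaks of these genes ranked above the middle of their lists. Their median percentile was 78.8, 69.0, 79.2 and 69.0 in FGR replicates 1 to 4 and 70.5, 60.8, 77.1 and 78.8 in Ctrl replicates 1 to 4. The same median over the strongest gene-end peak of every protein-coding gene that had one was 73.9, 70.5, 74.2 and 71.8 in FGR and 67.4, 61.7, 71.2 and 73.9 in Ctrl. The oxidative phosphorylation genes were thus slightly below all genes in FGR replicates 2 and 4 and in Ctrl replicate 2, and above them in the other libraries. FGR and Ctrl overlapped, and Ctrl replicate 2 was lowest on both measures. Complex II had medians from 79.1 to 90.7 in FGR libraries and from 71.8 to 87.3 in Ctrl libraries, and complex III from 57.7 to 81.8 and from 35.7 to 84.6.

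The promoters were rich in CpG, the dinucleotide of CpG islands. In the 300-base window from 250 bases before to 50 after each start, the 78 genes had a median of 20 CpG and a GC content of 58.8%, against 15 and 57.3% over 17491 genes. Where a gene had several listed starts, its highest value was taken. Genes with a start peak in all 8 libraries had a median of 21 CpG, those with one in 1 to 7 libraries 16, and the 4 with none 7.5. Ndufa1 was an exception among the 4, with 29 CpG and no peak. The exact letters GCATGCGC of the NRF1 motif were found in either strand of a window at 12 genes, or 15.4%, against 3.93% of the 17491 genes. Among the 12 were Sdhb, Ndufa6, Ndufa8 and Uqcrc1. CCGGAAG was found in 19 (24.4% against 12.9%), including Cox8a, Cox6b1, Atp5j and Ndufs8, and AAGATGGC, a YY1 motif, in 11 (14.1% against 3.57%). All but 1 of the 11 YY1 matches lay after the start or overlapped it, as at Ndufs7 and Atp5j2. The CRE was found in 4 (5.13% against 2.54%), the ERR motif in 2 (2.56% against 0.377%) and the GC box GGGGCGGGG in 12 (15.4% against 17.3%). Matches to different motifs did not overlap each other. In the palindrome GCGCATGCGC, as at Cox6a1, the NRF1 letters match on both strands and were counted as 1 gene. A match describes letters and does not show that a factor was bound.

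Between FGR and Ctrl, a single gene was called in every library of 1 group and in none of the other. Ndufc2, an accessory subunit of the membrane arm of complex I (chromosome 7, 97400003 to 97407800), showed this, with gene-end peaks in 4 FGR and 0 Ctrl libraries, over the stretch printed above. The peaks had −log10 q of 7.21, 3.74, 6.28 and 6.08 in FGR replicates 1 to 4, at percentiles of 55.0, 14.6, 47.1 and 39.1. In Ctrl replicates 1 to 4 the nearest peak was 16926, 28168, 9684 and 9611 bp away. Fisher's exact test over libraries gave p = 0.0286, the smallest that 4 against 4 libraries allow, and an adjusted p of 1 over 5685 genes. It takes the 4 FGR libraries as separate samples, as limma does below, although pairs of them shared summits. Over all genes 0.169% had this pattern and 0.0228% the reverse, which no oxidative phosphorylation gene showed. Ndufc2 lost it when lists were cut to 10862 peaks each, and when −log10 q of at least 5 was required.

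More of the 96 genes had a gene-end peak in more FGR than Ctrl libraries than the other way, by a share close to that of all genes. It was 16 genes (16.7%) with more FGR libraries and 4 (4.17%) with fewer, against 16.5% and 5.50% of all genes, and 76 genes had equal numbers. The 4 were Atp5g3, Uqcr11, Uqcrfs1 and Ndufs3. Ndufaf1, Ndufb8, Cox6c, Cox6b2 and Atp5l had one in 4 FGR and 2 Ctrl libraries. Ctrl replicate 2, the shortest list, was among the libraries without one at 4 of these 5, Cox6b2 being the exception. Fisher's exact test called 0 of the 24 genes tested, with 1 (Ndufc2) at an unadjusted p under 0.05. With 42 of 5685 genes at the smallest p the design allows, none could pass adjustment, so the test says nothing about single genes.

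Of the 96 genes, 83.3% ± 0.737 had a gene-end peak in FGR and 78.4% ± 2.58 in Ctrl (SD, n = 2 pairs), with SDs over 4 single libraries of 1.90 and 5.98. By library the numbers were 78, 79, 81 and 82 genes in FGR replicates 1 to 4 and 76, 67, 78 and 80 in Ctrl replicates 1 to 4. The groups overlapped, and Ctrl replicate 2 was lowest. All protein-coding genes had 47.6%, 44.7%, 48.4% and 46.1% in FGR and 41.8%, 34.8%, 45.9% and 48.3% in Ctrl. The difference of 4.95 percentage points was 2.08 without Ctrl replicate 2 and 1.04 without Ctrl replicates 1 and 2. It was 7.29 within the older deposits (replicates 1 and 2) and 2.60 within the newer (replicates 3 and 4). With all lists cut to their 10862 strongest peaks, 62.5%, 55.2%, 63.5% and 57.3% of the genes had one in FGR and 72.9%, 69.8%, 68.8% and 67.7% in Ctrl. The order was then turned round and the groups no longer overlapped. All genes moved the same way, at 30.1% to 31.8% in FGR and 32.7% to 34.8% in Ctrl. These shares over chosen genes carry no test, and more cells with an open site cannot be told apart from a site more open per cell.

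The loci, each the gene span with 20 kb on either side, held more peaks in FGR by number and fewer by share of the list. By number there were 214, 210, 227 and 229 peaks in FGR replicates 1 to 4 and 181, 148, 211 and 212 in Ctrl replicates 1 to 4, or 220 ± 0.707 and 188 ± 11.3 (SD, n = 2 pairs), a ratio of 1.17. Single libraries had an SD of 9.42 in FGR and 30.3 in Ctrl, since each pair averages an older and a newer deposit. Lists as a whole were 1.44 times as long in FGR. Per 10000 peaks of the list the loci held 78.7, 90.02, 76.9 and 87.3 peaks in FGR and 112, 136, 92.9 and 87.6 in Ctrl, or 83.2 ± 7.66 and 107 ± 6.58 (SD, n = 2 pairs). The SD over single libraries was 6.40 in FGR and 22.04 in Ctrl. FGR replicate 2 lay above Ctrl replicate 4, so the groups overlapped, and Ctrl replicates 1 and 2, the shortest lists, were highest. The difference of -24.1 per 10000 was -40.0 within the older deposits, -8.18 within the newer and -7.06 without Ctrl replicates 1 and 2. Without Ctrl replicate 2 alone it was -14.4. Per 10000 gene-end peaks of the list, in place of all peaks, the loci held 209 to 226 in FGR and 204 to 217 in Ctrl, a difference of 4.95. The direction therefore depended on the scale. Over whole lists, gene-end peaks of all genes were 1.14 times as many in FGR as in Ctrl, and other peaks 1.72 times as many. Gene-end peaks were thus a smaller part of FGR lists, and a lower share per 10000 peaks was not particular to these loci.

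**Figure D4:**
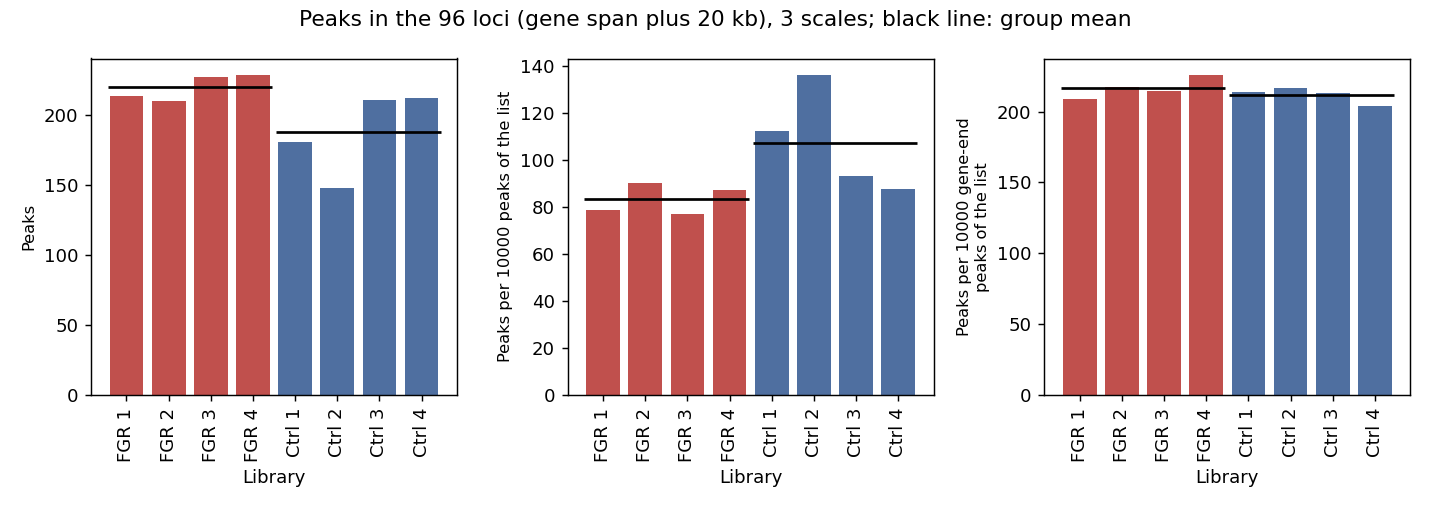
Peaks in the 96 loci by library, FGR left of Ctrl, as a number, per 10000 peaks of the list and per 10000 gene-end peaks of the list, each axis starting at 0, with a black line at each group's mean. FGR is higher by number, lower per 10000 peaks and nearly level with Ctrl per 10000 gene-end peaks.

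By complex, the loci of complex I held 108, 106, 112 and 114 peaks in FGR and 92, 81, 105 and 99 in Ctrl replicates 1 to 4. Every FGR library was above every Ctrl library by number, while per 10000 peaks the groups overlapped (41.6 ± 3.97 in FGR and 54.7 ± 4.29 in Ctrl, SD, n = 2 pairs), with SDs over single libraries of 3.41 and 14.9. For complexes II, III and IV it was the share that separated the groups, with FGR lower. Per 10000 peaks, complex II loci held 4.78 to 6.43 in FGR and 6.61 to 9.21 in Ctrl, complex III loci 3.86 to 5.72 and 5.79 to 7.45, and complex IV loci 13.2 to 15.004 and 15.4 to 20.3. None of these 3 overlapped, and all 3 overlapped by number. Loci of all protein-coding genes together held 23280, 20454, 25238 and 22906 peaks in FGR and 14659, 10089, 20173 and 21265 in Ctrl replicates 1 to 4. As a share of the list, every FGR library lay below every Ctrl library there too, so such a separation was not particular to these complexes. The separation of complexes II, III and IV by share did not carry over to other scales. With equal-length lists the differences were 0.46 for complex II, -1.38 for complex III and -0.46 for complex IV, and per 10000 gene-end peaks they were -0.242, -1.10 and 1.83. Complex V overlapped on both scales, with 42 to 47 peaks in FGR and 27 to 42 in Ctrl by number, and 15.4 to 19.3 and 17.4 to 24.9 per 10000.

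Gene by gene, mean peak number was higher in FGR at 61 loci, lower at 10 and equal at 25, and the share per 10000 was lower at 82 and higher at 10. Over all genes 56.6% were higher and 9.62% lower by number, and 30.3% higher and 48.2% lower by share. By number the groups did not overlap at 1 of the 96 with FGR higher, against 2.23% of all genes, and at 0 with FGR lower, against 0.0183%. That gene was Ndufs7, with 4, 5, 4 and 5 peaks in FGR and 3, 3, 2 and 3 in Ctrl replicates 1 to 4. Per 10000 its groups overlapped. By share the groups did not overlap at 8 of the 96 (8.33%) with FGR lower, against 3.22% of all genes, and at 0 with FGR higher, against 0.937%. Loci without any peak count in the all-gene shares but can show no difference, and only 4 of the 96 had such a locus. How many of all genes had one was not counted, so the shares here do not compare like loci.

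The 8 were the complex I genes Ndufv1, Ndufa3 and Ndufaf3, the complex III genes Uqcrfs1, Uqcrc1 and Uqcrc2, Cox7a2l, whose product helps to join complexes III and IV, and Atp5j2, the f subunit of complex V. Their peak numbers were small, and overlapped between groups at all 8. Atp5j2 held 3, 3, 4 and 3 peaks in FGR and 3, 4, 4 and 5 in Ctrl replicates 1 to 4, which is 1.10, 1.29, 1.36 and 1.14 per 10000 in FGR and 1.86, 3.68, 1.76 and 2.07 in Ctrl. Ctrl replicate 2 was the highest by far. Ndufaf3 held 3 in each FGR library and 3, 3, 4 and 4 in Ctrl. Ndufv1 held 3, 2, 3 and 3 in FGR and 3, 2, 3 and 3 in Ctrl, the same numbers, so that its lower share in FGR came from list length alone. Uqcrfs1 held 1, 0, 1 and 1 in FGR and 1, 1, 2 and 2 in Ctrl.

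No locus of the 96 passed the limma test, which compared log2 of peaks plus 0.5 per 10000 leaving out loci that averaged fewer than 2 peaks. The filter kept 51 of the 96 and 8034 of all loci, and of all loci 0.0124% were called higher and 0% lower in FGR after Benjamini-Hochberg adjustment. At an unadjusted p under 0.05, 0 of the 51 were higher and 8 lower, against 209 and 1256 of the 8034. Atp5j2 had the smallest adjusted p, its log2 value being -0.84 ± 0.25 (SE) in FGR minus Ctrl (limma adjusted p = 0.133). Ndufaf3 differed by -0.77 ± 0.25 (SE, limma adjusted p = 0.158) and Ndufv1 by -0.59 ± 0.26 (SE, limma adjusted p = 0.228). Ndufs7, which had more peaks in FGR by number, differed by 0.04 ± 0.27 (SE, limma adjusted p = 0.935). The median difference was -0.40 over the 51 and -0.28 over the 8034, and 49 of the 51 and 77.5% of all loci were below 0. With equal-length lists, where 28 of the 96 and 3542 of all loci were tested, both medians were 0, and 11 of the 28 and 1351 of the 3542 were below 0. The Atp5j2 difference was then -0.21 ± 0.22 (SE, limma adjusted p = 0.759).

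**Figure D5:**
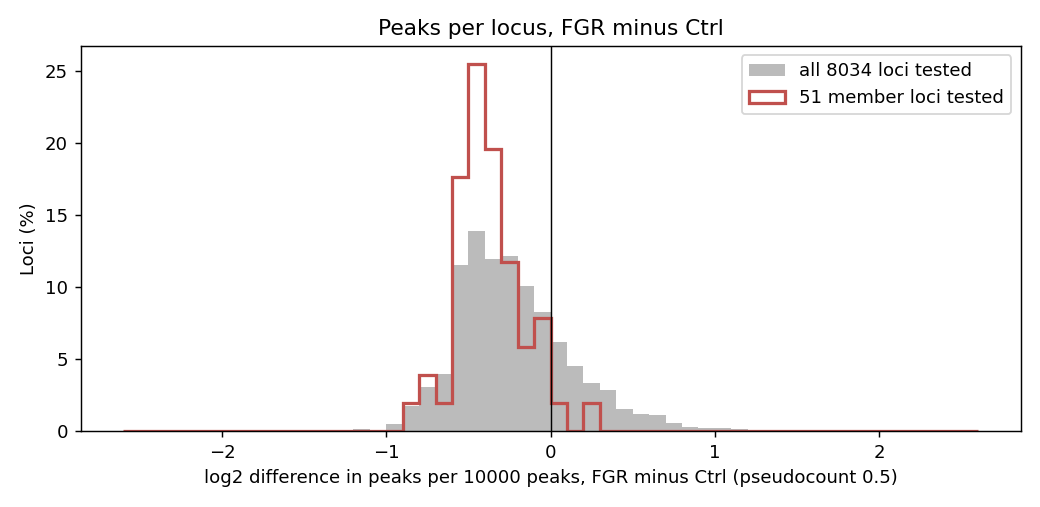
Log2 difference in peaks per 10000 peaks, FGR minus Ctrl (horizontal axis), as the percent of loci in each bin (vertical axis), for the 51 loci tested here (red outline) and all 8034 loci tested (grey). Both lie mostly below 0, with medians of -0.40 and -0.28, which were both 0 with equal-length lists.

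Genes that work beside the 96 were open at similar or higher frequency. Carriers and subunits named outside the prefixes, including the cytochrome genes Cyc1 and Cycs and the electron transfer flavoprotein genes Etfa, Etfb and Etfdh, had a gene-end peak in all 8 libraries at 7 of 7 matched of 8 listed. Assembly factors named outside the prefixes, for complexes I to V, had one at 31 of 39. The regulators of mitochondrial genes had one at 13 of 22, among them Nrf1, Gabpa, Esrra, Yy1 and Tfam. The coactivator gene Ppargc1a had one in 1 library of each group. The 4 with none in any library were the receptor genes Esrrb and Esrrg, the GABP gene Gabpb1 and Mterf1a. No gene of these 3 lists differed by 3 or more libraries between FGR and Ctrl.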

How the data were processed

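The analysis started from 8 deposited narrowPeak lists, 1 per library. The genome build was mm10, per the submitters' processing notes. Those notes also list MACS2 2.2.7.1, Bowtie2 2.4.5, Trim Galore 0.6.5, DiffBind 3.12.0 and SAMtools 1.3.1, without roles or settings. Any read shifting or duplicate handling was not given in the sources used here. Read depth is unknown. The deposited score of a peak was not used. The deposited fold, a ratio over local background, was only described. The deposited −log10 p and −log10 q are the authors' own values per peak, and −log10 q ranked or filtered peaks within a list. The deposited summit offset gave summit positions.

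Genes and starts came from RefSeq tables of GRCm38.p6. Libraries were grouped by their titles. FGR and Ctrl were compared by Fisher's exact test per gene and by limma 3.58.1 with a trend (R 4.3.3), both two-sided with Benjamini-Hochberg adjustment over all genes or loci at a threshold of 0.05. The rest was done with scipy 1.17.1, pandas 2.3.3, numpy 2.4.6 and matplotlib 3.10.9 in Python 3.11.15, and counting and limma were tested on simulated data. The genes, lists and rules were chosen with earlier results of these data known. Named genes were catalytic and other chosen subunits, tissue-restricted isoforms with their partners, c-subunit genes and genes differing by 3 or more libraries. Also named were those without a gene-end peak, the strongest 6 and weakest 4, and loci called by limma or with groups that did not overlap. Other named genes, such as those near a named one or with a motif, were chosen after their values were seen. Some genes that these rules would name are not reported here, although counts include them. Alternatives changed window, flank, −log10 q, list length, scale, pseudocount, filter, gene set and libraries. 2 of them, RefSeq starts and scaling to gene-end peaks, were chosen after seeing the data. Same-numbered FGR and Ctrl libraries were not paired by the labels.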

Additional observations from a re-analysis of the deposited data

Results flagged for a closer look

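8 values lay far from the other 3 libraries of their group by Dixon's criterion, among 56 groups of 4 examined, where chance gives about 1 in 20 for untied values. Where the other 3 libraries tie, any single difference meets the criterion, so that rate does not apply. In numbers of genes with a gene-end peak, FGR replicate 1 had 43 in complex I against 44 in each other FGR library. FGR replicate 4 had 16 in complex V against 15. Ctrl replicate 2 had 7 in complex IV against 9. These gaps are of 1 or 2 genes.

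In locus peaks, FGR replicate 2 had 35 in complex IV loci against 39 in each other FGR library. Per 10000 peaks, Ctrl replicate 2, the shortest list, was at 9.21 in complex II and 3.68 at Atp5j2. Ctrl replicate 1 was at 1.86 at Uqcrc2, which held 3 peaks there and 1, 2 and 2 in the other Ctrl libraries. FGR replicate 2 was at 0 at Uqcrfs1, whose locus held no peak in it and 1 in each other FGR library.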

How the results depend on the processing

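The percent of genes with a gene-end peak stayed higher in FGR in 18 of 19 settings and was -10.2 percentage points with equal-length lists. Leaving out 1 library gave 2.08 to 6.60. The share of peaks in the loci stayed lower in FGR in 18 of 20 settings. It was -7.06 without Ctrl replicates 1 and 2, 32 as a raw number and 4.95 per 10000 gene-end peaks, and leaving out 1 library gave -30.6 to -14.4. Fisher's exact test called 0 of the genes, but could call none, its smallest p being 0.0286 to 0.333 by setting, and says nothing about stability. Limma called 0 of the 96 in 19 of 20 settings. A fit with the replicate number as a block called 1, Atp5j2 (-0.84, limma adjusted p = 0.0414), with 54 loci higher and 87 lower over all. Same-numbered FGR and Ctrl libraries showed little correlation in their deviations over loci (r from -0.0181 to 0.0976). Such libraries share a number and an older or newer deposit, and whether they share anything more was not tested. Over all loci, limma called 1 higher and 0 lower, but 7 and 50 with a pseudocount of 1, 13 and 7 with equal-length lists, and 8 and 7 without Ctrl replicate 3. The Ndufs7 difference was negative at -0.021 with 50 kb flanks, -0.42 in replicates 1 and 2 alone, -0.031 with a pseudocount of 1 and, with 1 library left out, from -0.20 to 0.31. Where the cause of a change is not the setting's own construction, it was not tested. Locus counts are small, which limits detection to large differences, and peak lists do not show signal below the calling threshold.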
